A study of Homo sapiens with 12 samples.

Results

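The 33 genes described here are the enzymes of sterol synthesis, the enzymes of fatty acid synthesis and the SREBP factors with their controls. They were listed by name, for their place in the pathway, and all 33 were found among the 32077 genes of the count table and passed the filter on low counts. The RNA came from 2 human prostate cancer lines that grow without androgen, PC3, derived from a bone metastasis, and DU145, derived from a brain metastasis, both labelled wild type. Each line was kept for 48 h with vehicle or with 2.5 uM pentamidine, an aromatic diamidine used against protozoan and fungal infections that gathers in mitochondria and binds AT-rich DNA. Poly(A)-enriched RNA was sequenced from 3 samples of each of the 4 groups (12 in all), so the comparison within a line asks what the drug changed and the product of line and drug asks whether the lines responded differently. The labels number the samples of a group but do not say that they were separate cultures, so the p-values measure the spread between these samples, which may be technical.

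SREBPs (sterol regulatory element-binding proteins) are membrane-bound transcription factors. When the endoplasmic reticulum is low in cholesterol, the escort protein SCAP carries them to the Golgi, proteases release their active part, and this part switches on the enzymes of cholesterol and fatty acid synthesis. When cholesterol is plentiful, it and the INSIG proteins hold SCAP and its cargo back. Prostate cancer cells are known for active lipid synthesis, and FASN is often high in these tumours.

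Depth was even, at 13514195 to 15131436 counts per sample. Levels below are normalized CPM, the read count scaled to the depth of the library by TMM, except for the markers in this paragraph. Those are CPM over the library total, without TMM. Shares of counts aside, a level is compared between genes only after division by exon length. The markers of the labelled cells were mixed. Keratin genes were found in both lines, with KRT8 at 18.9 to 21.5 CPM in vehicle-treated PC3 cells and 2549 to 2715 in DU145, whereas the epithelial genes EPCAM and CDH1 had at most 2 and 10 counts in any sample. CTNNA1, which PC3 cells are known to have lost through a deletion, stood at 435.1 to 444.2 CPM in the vehicle samples labelled PC3 and 392.3 to 413.9 in those labelled DU145. These data go against a known trait of the line, although a count over the whole gene does not show which exons were read, and the line names are used here as labels. The prostate luminal genes KLK3, KLK2 and FOLH1 had at most 3 counts, and so did leukocyte PTPRC, while fibroblast COL1A1 had at most 40. PC3 vehicle replicate 1 stood apart from its 2 mates, at mean chi-square values of 5.975 and 7.305 per gene against 1.715 to 3.641 for every other pair in a group. The share of counts from genes of the mitochondrial chromosome was lower with the drug, at 3.85% and 2.71% in PC3 and 4.543% and 2.006% in DU145 (vehicle and pentamidine means). With those genes left out of the fits, 19 members changed in PC3 (15 higher) and 21 in DU145 (18 lower), close to the counts below.

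With pentamidine more of these genes rose than fell in PC3, and more fell than rose in DU145. In PC3 cells 19 of the 33 members changed, 15 higher and 4 lower, at an adjusted p below 0.05 in edgeR's quasi-likelihood test. Of all 13861 genes tested in PC3, 21.7% rose and 21.7% fell. In DU145 cells 22 members changed, 4 higher and 18 lower, where 17.2% of all 14313 genes rose and 16.8% fell. Without PC3 vehicle replicate 1 these counts stayed at 15 and 4 in PC3, but without PC3 pentamidine replicate 1, 2 or 3 only 2, 1 and 2 members were lower. The median log2 fold change of the members was 0.167 in PC3 (all genes 0.0046) and -0.128 in DU145 (all genes 0.0085). The changes were small. None of the members passed the threshold used in the study, an absolute log2 fold change above 1 with an adjusted p below 0.05, which 4.75% of all genes passed in PC3 and 2.03% in DU145. That count was 0 in both lines also with DESeq2 and limma, and no member had an absolute log2 fold change above 1 at any p. A value in parentheses beside an adjusted p is a log2 fold change of pentamidine over vehicle. Members ranged from -0.33 (EBP) to 0.72 (NPC1) in PC3 and from -0.61 (HMGCS1) to 0.89 (TM7SF2) in DU145. The 3 samples of each group did not overlap for 21 members in PC3 (52.1% of all genes) and 24 in DU145 (44.0% of all genes).

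Only 6 members changed in the same direction in both lines. TM7SF2, SREBF1 and SCD rose in both, and NSDHL, EBP and ACACA fell in both. Of these, the calls of SCD in DU145 and of NSDHL and ACACA in PC3 were lost when single samples were left out, and those of SCD and NSDHL also under other settings. Another 6, ACAT2, FDPS, FDFT1, MSMO1, NPC1 and ACLY, rose in PC3 and fell in DU145, so for them the lines moved in opposite directions past the test on both sides. Of these 6, FDFT1, NPC1 and ACLY fell little in DU145, and their calls there were lost when libraries were scaled by their totals alone or limma was used (adjusted p of at most 0.176). The limma fits also scaled libraries by their totals, without TMM, so they are not a separate check of the scaling. MVD, LSS, CYP51A1, SREBF2, STARD4 and FADS1 rose in PC3 without passing in DU145. HMGCS1, MVK, IDI1, SQLE, SC5D, DHCR7, INSIG1, FASN and LPIN1 fell in DU145 without passing in PC3. SCAP fell in PC3 alone and INSIG2 rose in DU145 alone. PMVK, HSD17B7, ELOVL6 and FADS2 passed in neither line, though HSD17B7 did in PC3 under some other settings.

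**Figure D1:**
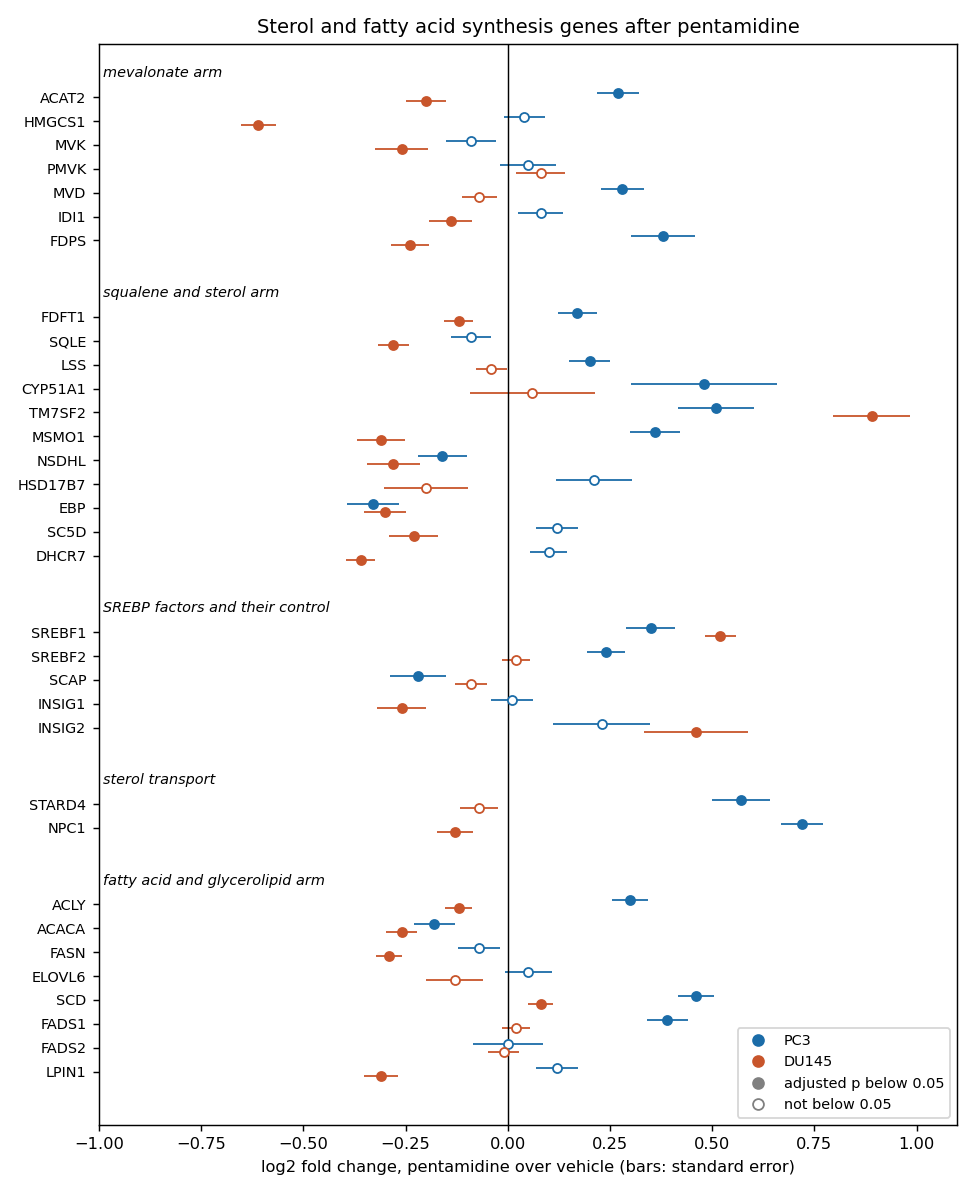
Log2 fold change of each of the 33 genes with pentamidine over vehicle, in PC3 (blue) and DU145 (orange), with standard errors as bars; filled points passed an adjusted p of 0.05. Most blue points lie right of 0 and most orange points left of it, with TM7SF2 and SREBF1 right of it in both lines.

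The lines did not start from the same level. With vehicle, 29 of the 33 members were higher in PC3 than in DU145 and 2 were lower, SCAP and FADS2, by the same test (all genes: 31.5% higher and 33.8% lower in PC3). The median log2 difference was 0.676, against -0.0105 over all genes. Counts of the members together made up 1.038% ± 0.0085 of the library in vehicle-treated PC3 cells and 0.562% ± 0.0142 in DU145 (SD, n = 3 each). With pentamidine these shares were 1.165% ± 0.0268 and 0.536% ± 0.0103, the first above and the second below the vehicle mean. In bulk RNA, fewer cells and less RNA per cell cannot be told apart. FASN and SCD held 42.2% ± 0.834 of the members' counts in vehicle-treated PC3 and 38.9% ± 0.997 in DU145, without division by exon length.

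Per length, the desaturase gene SCD led in both lines, at 362.8 ± 6.72 CPM per kb of exon in PC3 and 170.5 ± 4.52 in DU145 with vehicle. FASN came next, at 254.3 ± 15.2 and 142.2 ± 9.89 CPM per kb. DHCR7, the reductase of the last step to cholesterol, stood at 159.1 ± 5.07 CPM per kb in PC3 and 56.9 ± 1.99 in DU145. Together with ACLY these were the 4 highest members per length in both lines. The widest gaps between the lines were those of INSIG1 and FADS2, in opposite directions. INSIG1 stood at 85.4 ± 1.68 CPM per kb in PC3 and 14.7 ± 0.146 in DU145, a log2 difference of 2.51. FADS2, a desaturase of polyunsaturated fatty acids, was at 1.96 ± 0.115 in PC3 and 13.7 ± 0.392 in DU145, a log2 difference of -2.83. Its neighbour FADS1 was at 30.5 ± 0.853 and 27.4 ± 0.841 CPM per kb, a log2 difference of 0.13 whose call was lost without DU145 vehicle replicate 2 or 3 (adjusted p = 0.0899 to 0.102). PMVK and LPIN1 did not pass between the lines (95% intervals of the log2 difference -0.09 to 0.22 and -0.05 to 0.15), though LPIN1 did under library size alone and limma (adjusted p = 0.0206 to 0.0222). Line and culture cannot be told apart in this comparison.

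**Figure D2:**
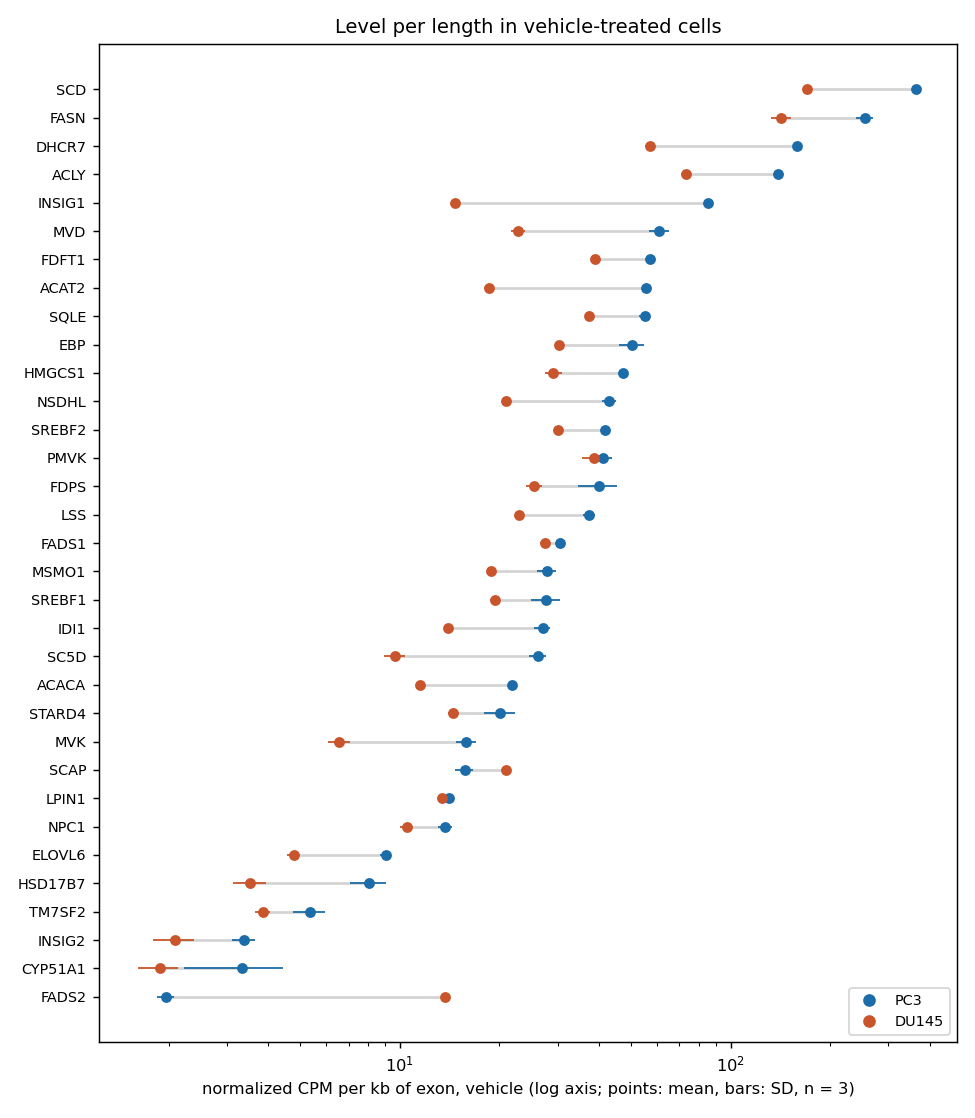
Level of each gene per kb of exon in vehicle-treated PC3 (blue) and DU145 (orange) cells, on a log axis, as mean and SD of 3 samples. Blue lies right of orange for most genes; FADS2 and SCAP lie the other way.

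SREBPs bind sterol regulatory elements, usually beside boxes for NF-Y (CCAAT) and GC boxes, so these letters were searched in the 250 bases before each RefSeq start (GRCh38.p14), on both strands. Of the 33 members, 29 had promoters in the table, 41 in all. The element TCACNCCAC was found in 1 of the 29 genes, SREBF2, against 1.09% of 27305 genes. CCAAT was found in 19 of 29, against 37.0% of all genes, and GGGCGG in 28 of 29, against 46.24%. These shares are over every gene with a RefSeq promoter, expressed here or not, whereas the members were all expressed. CCAAT stood in 12 of the 14 genes with a promoter that fell in DU145, in 2 of the 4 that rose and in 5 of the 11 that did not pass there. In PC3 it stood in 9 of the 13 that rose, 3 of the 4 that fell and 7 of the 12 that did not pass. By role it was found in 5 of the 6 genes of the mevalonate arm with a promoter, 8 of the 9 of the squalene and sterol arm and 3 of the 7 of the fatty acid and glycerolipid arm. A match to these letters is a description of the sequence and not a bound site. Only exact matches in this window were searched, so a gene without one may still hold such an element. The promoters printed here, 5′ to 3′ on the strand of the gene, are those of genes that the results turn on: SREBF2, which holds the element, TM7SF2 and SREBF1, which rose in both lines, HMGCS1, with the greatest fall in DU145, MSMO1 and FDPS, which moved in opposite directions, and NPC1, with the greatest rise in PC3. Capitals mark TCACNCCAC and CCAAT on either strand, so that CCAAT on the other strand reads ATTGG. The second of the 2 RefSeq starts of HMGCS1 is shown, since the first holds no capital.
SREBF2 promoter, chr22:41832855-41833104, + strand: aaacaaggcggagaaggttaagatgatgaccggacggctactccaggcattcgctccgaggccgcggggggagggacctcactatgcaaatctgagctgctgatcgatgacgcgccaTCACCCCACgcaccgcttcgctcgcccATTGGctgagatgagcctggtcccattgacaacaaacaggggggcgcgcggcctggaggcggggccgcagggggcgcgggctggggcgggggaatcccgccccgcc
TM7SF2 promoter, chr11:65111622-65111871, + strand: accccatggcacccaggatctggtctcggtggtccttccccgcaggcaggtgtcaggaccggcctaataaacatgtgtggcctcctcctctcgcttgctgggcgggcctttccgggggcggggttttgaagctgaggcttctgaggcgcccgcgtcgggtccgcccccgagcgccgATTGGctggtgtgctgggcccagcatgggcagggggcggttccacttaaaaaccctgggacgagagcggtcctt
SREBF1 promoter, chr17:17836987-17837236, - strand: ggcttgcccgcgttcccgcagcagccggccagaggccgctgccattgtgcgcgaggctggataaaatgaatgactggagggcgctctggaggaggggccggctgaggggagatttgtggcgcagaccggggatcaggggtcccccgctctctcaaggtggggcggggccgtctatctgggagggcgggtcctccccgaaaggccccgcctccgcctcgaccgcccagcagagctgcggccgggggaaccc
HMGCS1 promoter, chr5:43313413-43313662, - strand: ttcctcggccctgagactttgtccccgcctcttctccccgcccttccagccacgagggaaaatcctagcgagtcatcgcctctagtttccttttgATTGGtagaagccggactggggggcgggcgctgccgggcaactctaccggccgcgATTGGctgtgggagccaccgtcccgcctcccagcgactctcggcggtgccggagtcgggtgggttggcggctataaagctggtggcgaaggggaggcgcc
MSMO1 promoter, chr4:165327419-165327668, + strand: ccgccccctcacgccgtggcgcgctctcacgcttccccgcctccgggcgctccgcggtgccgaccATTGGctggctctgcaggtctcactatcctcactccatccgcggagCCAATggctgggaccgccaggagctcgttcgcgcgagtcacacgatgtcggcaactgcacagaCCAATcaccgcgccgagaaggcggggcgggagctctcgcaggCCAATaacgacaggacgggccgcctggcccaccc
FDPS promoter, chr1:155308616-155308865, + strand: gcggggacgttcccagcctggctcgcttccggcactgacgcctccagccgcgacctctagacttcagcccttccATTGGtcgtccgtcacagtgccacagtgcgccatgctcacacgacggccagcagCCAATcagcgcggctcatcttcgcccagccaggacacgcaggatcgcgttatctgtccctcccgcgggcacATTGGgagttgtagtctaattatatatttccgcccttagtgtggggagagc
NPC1 promoter, chr18:23586507-23586756, - strand: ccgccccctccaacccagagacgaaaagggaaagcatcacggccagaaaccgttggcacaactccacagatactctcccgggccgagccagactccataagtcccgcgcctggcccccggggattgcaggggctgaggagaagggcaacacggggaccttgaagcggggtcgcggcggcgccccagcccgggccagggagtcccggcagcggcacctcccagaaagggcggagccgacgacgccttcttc

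The element of SREBF2 begins 133 bases before the start. MSMO1 carried 4 CCAAT boxes in this window, FDPS 3, HMGCS1 2 and TM7SF2 and SREBF2 1 each. SREBF1 and NPC1 carried none.

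The mevalonate arm builds farnesyl diphosphate from acetyl-CoA. Of its 7 members, 3 rose and none fell in PC3 (median log2 fold change 0.077), while none rose and 5 fell in DU145 (median -0.202). HMGCS1 (ENSG00000112972, chromosome 5: 43289395 to 43313512) makes HMG-CoA and had the greatest fall of any member. In DU145 it was at 132.2, 146.3 and 132.2 CPM with vehicle and 87.8, 90.9 and 90.5 with pentamidine. In PC3 it was at 216.0, 229.7 and 220.5 CPM with vehicle and 221.4, 228.7 and 233.1 with pentamidine. The DU145 groups lay far apart, with a log2 fold change of -0.61 (SE 0.044, adjusted p = 6.2e-17), whereas the PC3 groups overlapped (0.04, adjusted p = 0.538). FDPS (ENSG00000160752, chromosome 1: 155308748 to 155320666), the farnesyl diphosphate synthase, stood in PC3 at 126.4, 155.6 and 164.6 CPM with vehicle and 184.9, 205.3 and 187.4 with pentamidine. In DU145 FDPS was at 99.3, 95.6 and 89.3 CPM with vehicle and 80.0, 82.4 and 77.6 with pentamidine. Every pentamidine sample was above every vehicle sample in PC3 (0.38, SE 0.079, adjusted p = 0.00096) and below every one in DU145 (-0.24, adjusted p = 4.9e-05). The lowest PC3 value is that of vehicle replicate 1, the sample that stands apart, and without it the log2 fold change was 0.265 (adjusted p = 7.4e-05). ACAT2, which joins acetyl-CoA units at the entry of the arm, was in PC3 at 235.3, 236.8 and 245.0 CPM with vehicle and 282.1, 301.6 and 276.3 with pentamidine. DU145 samples had ACAT2 at 82.5, 77.3 and 79.6 CPM with vehicle and 71.0, 71.6 and 64.9 with pentamidine. Its groups were also apart in both lines, up in PC3 (0.27, adjusted p = 0.00041) and down in DU145 (-0.2, adjusted p = 0.00101).

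MVD, the mevalonate diphosphate decarboxylase, was in PC3 at 285.4, 268.4 and 307.9 CPM with vehicle and 347.8, 353.2 and 342.9 with pentamidine. In DU145 its levels were 112.3, 101.8 and 107.8 CPM with vehicle and 103.4, 101.3 and 100.8 with pentamidine. MVD rose in PC3 (0.28, adjusted p = 0.0004), and its DU145 groups overlapped (-0.07, adjusted p = 0.211). IDI1, which isomerizes the isopentenyl unit, was in PC3 at 115.7, 124.3 and 111.4 CPM with vehicle and 119.8, 126.4 and 123.5 with pentamidine. Its DU145 levels were 60.0, 61.6 and 61.5 CPM with vehicle and 53.6, 54.8 and 57.1 with pentamidine. The fall of IDI1 in DU145 was slight (-0.14, adjusted p = 0.0348) and did not pass when DU145 vehicle replicate 2 or 3 or DU145 pentamidine replicate 1 or 2 was left out (adjusted p = 0.078 to 0.113). In PC3 IDI1 had a log2 fold change of 0.08 (adjusted p = 0.291). MVK, the mevalonate kinase, fell in DU145 (-0.26, adjusted p = 0.00138), with levels of 40.2 to 46.3 CPM with vehicle and 34.0 to 36.8 with pentamidine. In PC3 MVK lay between 93.1 and 111.1 CPM in all samples (-0.09, adjusted p = 0.25). PMVK, the next kinase, kept overlapping groups in both lines, between 46.9 and 56.2 CPM over all 12 samples (0.05 in PC3 and 0.08 in DU145).

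The squalene and sterol arm turns farnesyl diphosphate into cholesterol. Of its 11 members, 5 rose and 2 fell in PC3 (median 0.167), and 1 rose and 7 fell in DU145 (median -0.232). The one that rose in DU145 was TM7SF2 (ENSG00000149809, chromosome 11: 65111845 to 65116384), a sterol reductase that acts after lanosterol is demethylated, and its change was the greatest of any member there. DU145 samples had TM7SF2 at 13.7, 13.3 and 12.3 CPM with vehicle and 26.8, 21.7 and 24.0 with pentamidine. PC3 samples had it at 17.3, 16.8 and 20.6 CPM with vehicle and 26.1, 25.3 and 26.0 with pentamidine. All pentamidine samples of either line exceeded all vehicle samples (DU145 0.89, SE 0.095, adjusted p = 4.8e-11, and PC3 0.51, SE 0.093, adjusted p = 0.0003). It is a weakly expressed member, so its values rest on fewer counts than those of most of the arm. MSMO1 (ENSG00000052802, chromosome 4: 165327623 to 165343160), the methylsterol oxidase, moved in opposite directions. In PC3 it was at 77.1, 86.6 and 77.6 CPM with vehicle and 100.1, 104.0 and 104.7 with pentamidine. In DU145 MSMO1 was at 53.9, 54.7 and 55.4 CPM with vehicle and 40.0, 45.2 and 46.5 with pentamidine. The rise in PC3 (0.36, SE 0.06, adjusted p = 0.00013) and the fall in DU145 (-0.31, SE 0.059, adjusted p = 3.2e-05) were of similar size, and the groups did not overlap in either line. FDFT1, the squalene synthase, was in PC3 at 288.2, 295.9 and 306.4 CPM with vehicle and 329.6, 330.6 and 336.0 with pentamidine. FDFT1 levels in DU145 were 202.9, 204.1 and 198.9 CPM with vehicle and 184.3, 187.2 and 185.6 with pentamidine. FDFT1 too rose in PC3 (0.17, adjusted p = 0.00898) and fell in DU145 (-0.12, adjusted p = 0.00778), each by less than the genes above.

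DHCR7, the most abundant member of the arm per length, was in DU145 at 236.8, 228.5 and 245.1 CPM with vehicle and 178.5, 186.6 and 188.0 with pentamidine. In PC3 DHCR7 was at 680.5, 638.9 and 666.0 CPM with vehicle and 696.8, 716.1 and 703.3 with pentamidine. Its fall in DU145 was clear (-0.36, SE 0.036, adjusted p = 1.1e-11), and in PC3 it did not pass (0.1, adjusted p = 0.0941) although the groups did not overlap. SQLE, the squalene epoxidase that controls the pace of the arm, was in DU145 at 156.7, 165.4 and 160.0 CPM with vehicle and 132.6, 131.2 and 132.6 with pentamidine. The PC3 levels of SQLE were 237.7, 246.0 and 227.7 CPM with vehicle and 224.3, 215.5 and 224.7 with pentamidine. SQLE fell in DU145 (-0.28, adjusted p = 4.9e-08) and is one of the few members whose value in PC3 was also below 0 (-0.09, adjusted p = 0.14). Its PC3 groups did not overlap, though the test did not pass. SC5D, a sterol desaturase, was in DU145 at 49.4, 55.9 and 56.0 CPM with vehicle and 44.3, 44.2 and 48.5 with pentamidine. The same gene was in PC3 at 154.8, 143.1 and 138.5 CPM with vehicle and 156.9, 154.6 and 160.0 with pentamidine. SC5D fell in DU145 (-0.23, adjusted p = 0.00173), and in PC3 it did not pass (0.12, adjusted p = 0.0829), though it did, at an adjusted p of 0.0187, without PC3 vehicle replicate 1. LSS, which closes the sterol rings, was in PC3 at 267.3, 260.8 and 282.4 CPM with vehicle and 313.2, 298.0 and 319.9 with pentamidine. LSS levels in DU145 were 169.5, 162.7 and 166.3 CPM with vehicle and 161.7, 161.2 and 159.8 with pentamidine. LSS rose in PC3 (0.2, adjusted p = 0.0032) and did not pass in DU145 (-0.04, adjusted p = 0.41), although its DU145 groups did not overlap.

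NSDHL and HSD17B7 work with MSMO1 in the removal of methyl groups, and EBP isomerizes the product. Unlike MSMO1, both EBP and NSDHL fell in both lines. EBP had levels in PC3 of 110.5 to 131.3 CPM with vehicle and 94.7 to 98.9 with pentamidine (-0.33, adjusted p = 0.00056) and in DU145 of 71.7 to 75.5 CPM with vehicle and 56.7 to 60.6 with pentamidine (-0.3, adjusted p = 4.6e-06). NSDHL was in DU145 at 41.1 to 43.0 CPM with vehicle and 33.2 to 35.9 with pentamidine (-0.28, adjusted p = 0.00045) and in PC3 at 82.2 to 90.1 CPM with vehicle and 73.3 to 78.0 with pentamidine (-0.16, adjusted p = 0.0401). The PC3 call of NSDHL was lost (adjusted p = 0.0633 to 0.161) when PC3 vehicle replicate 2 or 3 or any one of the 3 PC3 pentamidine samples was left out, and also with DESeq2, with no filter on low counts and with the replicate block (0.0562 to 0.0744). HSD17B7 was in PC3 at 33.3, 39.8 and 42.9 CPM with vehicle and 40.0, 47.5 and 46.3 with pentamidine. In DU145 HSD17B7 was at 16.2, 15.3 and 19.0 CPM with vehicle and 14.2, 13.6 and 16.2 with pentamidine. Its groups overlapped in both lines (0.21, adjusted p = 0.0757 in PC3, and -0.2, adjusted p = 0.129 in DU145). In PC3 it passed when vehicle replicate 3 or pentamidine replicate 1 was left out (adjusted p = 0.0206 to 0.0392). With every sample kept, HSD17B7 also passed in PC3 with no filter on low counts and with the replicate block (0.0343 to 0.0412). The count of HSD17B7 may share reads with its copy HSD17B7P2, whose own count was 14.352% of that of the gene.

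CYP51A1, the lanosterol demethylase, is uncertain. In PC3 it was at 7.38 to 14.7 CPM with vehicle and 14.7 to 18.0 with pentamidine, with a log2 fold change of 0.48 (adjusted p = 0.0388), and in DU145 at 5.66 to 7.36 CPM with vehicle and 5.69 to 8.07 with pentamidine (0.06, adjusted p = 0.82). The lowest of these PC3 values is again vehicle replicate 1, and without it the log2 fold change was 0.222 and the call was lost, as it was without PC3 pentamidine replicate 1 or 2 (adjusted p = 0.107 to 0.145). In GENCODE 29, 79.4% of its exon bases lie in another gene of the same strand, so reads could be split or left out. The count table does not hold that gene, and it gives CYP51A1 another position than GENCODE 29 does. The overlap in the annotation used for counting is thus not known. Other members share exon bases with genes of the opposite strand, and whether reads were counted by strand is not given in the sources used here. The shares were 18.6% for FDPS, 15.0% for HMGCS1, 14.8% for IDI1, 6.9% for SREBF1 and 6.0% for NPC1. IDI1 too has another position in the count table than in GENCODE 29. For ACAT2 the shares were 33.9% with SOD2-OT1, 26.5% with SOD2 and 9.2% with TCP1, of which the count table holds TCP1.

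**Figure D3:**
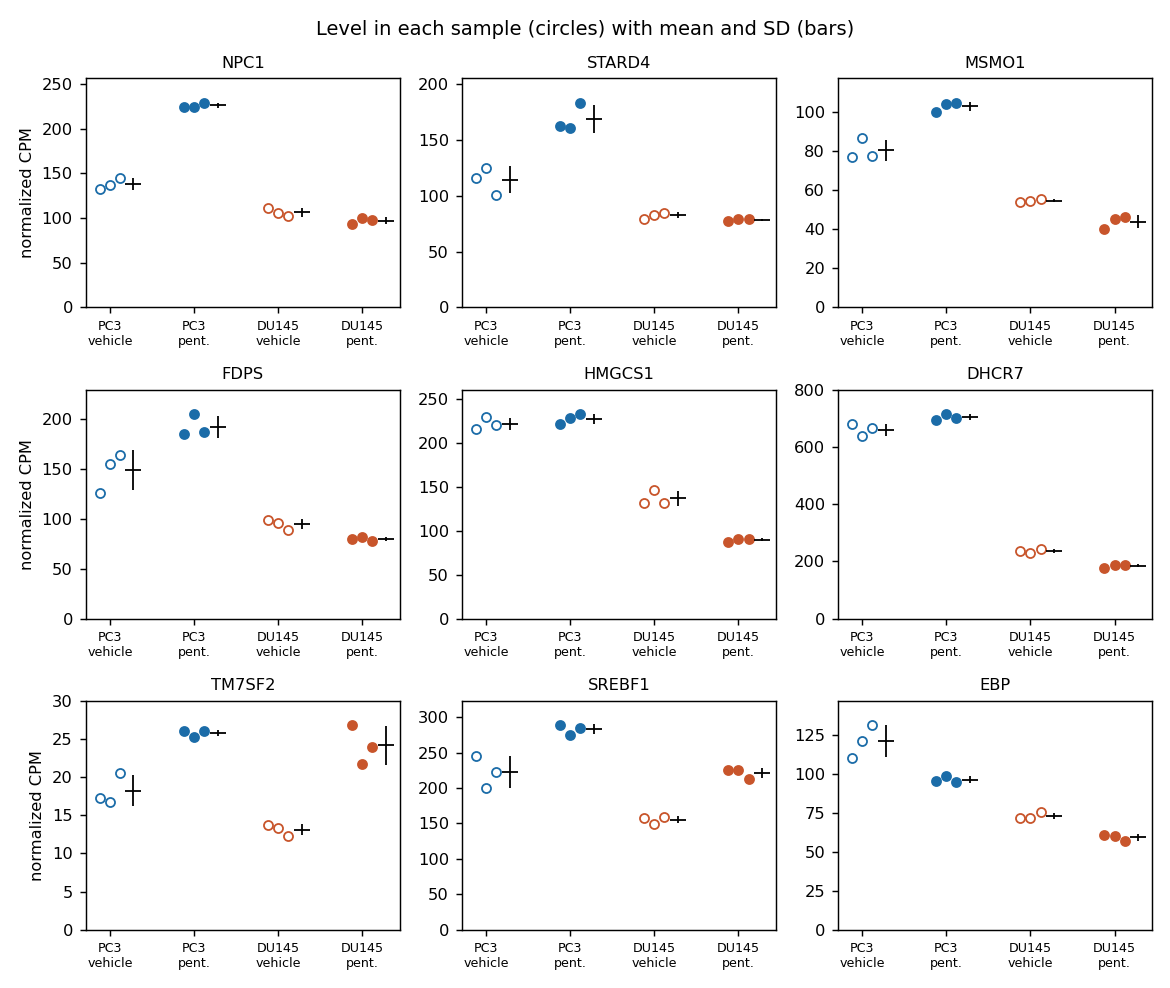
Normalized CPM of 9 genes in each of the 12 samples (circles, open for vehicle and filled for pentamidine, PC3 blue and DU145 orange), with the mean and SD of each group as black bars. NPC1, STARD4, MSMO1 and FDPS are higher with pentamidine in PC3 but not in DU145, HMGCS1 and DHCR7 are lower in DU145, TM7SF2 and SREBF1 are higher in both lines and EBP is lower in both.

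The factors themselves and their controls came next. Among the 5 genes, 2 rose and 1 fell in each line. SREBF1 (ENSG00000072310, chromosome 17: 17810399 to 17837002) encodes the factor that mainly drives fatty acid genes. In DU145 SREBF1 was at 158.2, 149.3 and 158.8 CPM with vehicle and 225.7, 225.5 and 213.1 with pentamidine. In PC3 SREBF1 was at 245.4, 200.8 and 222.2 CPM with vehicle and 288.7, 275.2 and 285.2 with pentamidine. It rose in both lines with no overlap, by 0.52 in DU145 (SE 0.037, adjusted p = 6.6e-17) and 0.35 in PC3 (SE 0.06, adjusted p = 0.00015). SREBF2 (ENSG00000198911, chromosome 22: 41833079 to 41907308) encodes the factor that mainly drives sterol genes. PC3 samples had SREBF2 at 310.3, 308.7 and 323.3 CPM with vehicle and 365.5, 363.1 and 380.2 with pentamidine. Those of DU145 had it at 233.2, 225.4 and 224.2 CPM with vehicle and 225.7, 235.3 and 228.0 with pentamidine. SREBF2 rose in PC3 (0.24, SE 0.047, adjusted p = 0.00055) and its DU145 groups overlapped (0.02, 95% interval -0.05 to 0.09, adjusted p = 0.733). These are transcript levels, and the cleavage that activates SREBPs is not seen in RNA counts.

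INSIG1, the retention protein that is itself a target of the factors, was in DU145 at 54.2, 53.2 and 53.5 CPM with vehicle and 41.0, 46.9 and 46.3 with pentamidine. INSIG1 levels in PC3 were 313.2, 317.2 and 305.2 CPM with vehicle and 293.3, 313.0 and 331.1 with pentamidine. INSIG1 fell in DU145 (-0.26, adjusted p = 0.00045) from a level already far below that of PC3, where its groups overlapped (0.01, 95% interval -0.1 to 0.12, adjusted p = 0.922). Its relative INSIG2 went the other way in DU145, at 6.95 to 9.17 CPM with vehicle and 10.4 to 12.5 with pentamidine (0.46, adjusted p = 0.00318), at low counts. In PC3 INSIG2 had a log2 fold change of 0.23 (adjusted p = 0.124), and passed without PC3 pentamidine replicate 2 (adjusted p = 0.0444). SCAP was lower with pentamidine in PC3, at 93.9 to 105.8 CPM with vehicle and 79.2 to 96.0 with pentamidine (-0.22, adjusted p = 0.018), a call lost without PC3 pentamidine replicate 2 or 3 (adjusted p = 0.116 and 0.0726). In DU145 SCAP was at 133.3 to 136.2 CPM with vehicle and 120.1 to 130.5 with pentamidine (-0.09, adjusted p = 0.0756). These groups did not overlap, and SCAP passed without DU145 pentamidine replicate 1 (adjusted p = 0.0294).

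Both sterol transport genes rose in PC3, and they had the greatest changes of any members there. NPC1 (ENSG00000141458, chromosome 18: 23506184 to 23586898) exports cholesterol from lysosomes. In PC3 NPC1 was at 132.2, 136.5 and 145.2 CPM with vehicle and 224.3, 224.6 and 228.6 with pentamidine. In DU145 NPC1 was at 111.4, 106.0 and 101.8 CPM with vehicle and 92.8, 100.5 and 97.6 with pentamidine. The PC3 groups were separated by far more than their spread (0.72, SE 0.052, adjusted p = 7.6e-09), while the fall in DU145 was slight (-0.13, SE 0.044, adjusted p = 0.0199) and was lost without vehicle replicate 1 or pentamidine replicate 1 of that line (adjusted p = 0.104 and 0.107). STARD4 (ENSG00000164211, chromosome 5: 111496033 to 111512590) carries sterols between membranes in the cytosol. PC3 samples had STARD4 at 116.2, 124.9 and 101.0 CPM with vehicle and 162.4, 160.1 and 182.9 with pentamidine. DU145 samples held it at 79.5, 83.1 and 84.8 CPM with vehicle and 77.5, 78.7 and 79.1 with pentamidine. STARD4 rose in PC3 (0.57, SE 0.071, adjusted p = 5.9e-06) and did not pass in DU145 (-0.07, 95% interval -0.16 to 0.03, adjusted p = 0.274), although its DU145 groups did not overlap.

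The fatty acid and glycerolipid arm makes, elongates and desaturates fatty acids. Of its 8 members, 3 rose and 1 fell in PC3 (median 0.083), and 1 rose and 4 fell in DU145 (median -0.122). SCD, which makes monounsaturated fatty acids, was in PC3 at 1950.8, 1978.0 and 1906.7 CPM with vehicle and 2637.3, 2608.6 and 2748.4 with pentamidine. In DU145 SCD was at 933.5, 886.9 and 921.8 CPM with vehicle and 926.0, 973.0 and 982.3 with pentamidine. The rise in PC3 stood well outside the spread (0.46, SE 0.044, adjusted p = 2.3e-07). That in DU145 was slight (0.08, adjusted p = 0.0433), its groups overlapped, and the call was lost (adjusted p = 0.0733 to 0.23) when DU145 vehicle replicate 2 or 3 or DU145 pentamidine replicate 2 or 3 was left out. ACLY, which supplies cytosolic acetyl-CoA from citrate, was in PC3 at 725.9, 721.7 and 732.2 CPM with vehicle and 881.4, 879.3 and 913.6 with pentamidine. ACLY levels in DU145 were 396.0, 374.4 and 373.2 CPM with vehicle and 337.5, 352.5 and 359.6 with pentamidine. ACLY rose in PC3 (0.3, adjusted p = 3.4e-05) and fell in DU145 (-0.12, adjusted p = 0.00388), with no overlap in either line. FASN, the fatty acid synthase, was in DU145 at 1433.8, 1252.8 and 1308.8 CPM with vehicle and 1060.7, 1091.3 and 1102.1 with pentamidine. FASN levels in PC3 were 2521.4, 2236.2 and 2385.0 CPM with vehicle and 2290.8, 2121.1 and 2348.4 with pentamidine. FASN fell in DU145 (-0.29, adjusted p = 1.8e-10), and its PC3 groups overlapped (-0.07, 95% interval -0.18 to 0.03, adjusted p = 0.261).

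FADS1, a desaturase of polyunsaturated fatty acids, was in PC3 at 302.5, 319.8 and 313.0 CPM with vehicle and 390.5, 407.4 and 424.3 with pentamidine. FADS1 levels in DU145 were 289.8, 275.8 and 274.1 CPM with vehicle and 273.0, 285.2 and 290.6 with pentamidine. FADS1 rose in PC3 (0.39, adjusted p = 7e-06) and its DU145 groups overlapped (0.02, adjusted p = 0.688). LPIN1, a phosphatase on the way to glycerolipids, was in DU145 at 161.9, 160.5 and 154.5 CPM with vehicle and 118.3, 128.0 and 135.6 with pentamidine. In PC3 LPIN1 was at 163.7, 172.1 and 167.0 CPM with vehicle and 181.4, 174.5 and 188.3 with pentamidine. LPIN1 had the greatest fall of the arm in DU145 (-0.31, SE 0.041, adjusted p = 1.6e-08) and did not pass in PC3 (0.12, adjusted p = 0.0694), although its PC3 groups did not overlap. ACACA, the acetyl-CoA carboxylase that commits acetyl-CoA to fatty acids, fell in both lines. In PC3 it was at 273.8 to 288.9 CPM with vehicle and 240.3 to 263.0 with pentamidine (-0.18, adjusted p = 0.00885), and in DU145 at 147.8 to 152.4 CPM with vehicle and 124.2 to 125.5 with pentamidine (-0.26, adjusted p = 2.3e-07). The PC3 call of ACACA was lost without PC3 pentamidine replicate 1 or 2 (adjusted p = 0.0504 and 0.057). ELOVL6, an elongase, passed in neither line (0.05 in PC3 and -0.13 in DU145). FADS2 had the smallest change of all, at 20.8 to 23.1 CPM with vehicle and 20.9 to 22.0 with pentamidine in PC3 (95% interval of the log2 fold change -0.18 to 0.18) and 146.6 to 155.1 CPM with vehicle and 146.5 to 152.5 with pentamidine in DU145 (95% interval -0.08 to 0.07).

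Whether the lines differed was tested directly, as the log2 fold change in DU145 minus that in PC3 over all 12 samples. For 22 of the 33 members the difference had an adjusted p below 0.05 in the edgeR test, against 20.4% of the 15226 genes tested. It was negative for 21 of them and positive for TM7SF2, and the median over all members was -0.264 (all genes 0.0091). NPC1 differed most, at -0.84 (95% interval -0.98 to -0.71, adjusted p = 3.3e-10). MSMO1 (-0.67), HMGCS1 (-0.65), STARD4 (-0.63) and FDPS (-0.61) followed. All roles had members that differed, 5 of 7 in the mevalonate arm, 8 of 11 in the squalene and sterol arm, 2 of 5 among the factors and their controls, both transport genes and 5 of 8 in the fatty acid and glycerolipid arm. SREBF1, which rose in both lines, did not pass this test (0.16, 95% interval 0.01 to 0.32, adjusted p = 0.128). It did pass without PC3 vehicle replicate 2 (adjusted p = 0.0143), and under library size alone and limma with every sample kept (0.0222 to 0.0358). EBP did not pass this test (0.03, 95% interval -0.14 to 0.19). Some of these calls were weak. Leaving out 1 of the 12 samples ended the call of TM7SF2 for 9 of them, of HSD17B7, IDI1 and SQLE for 7, of FASN for 5 and of INSIG1 for 1, with an adjusted p of at most 0.16.

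**Figure D4:**
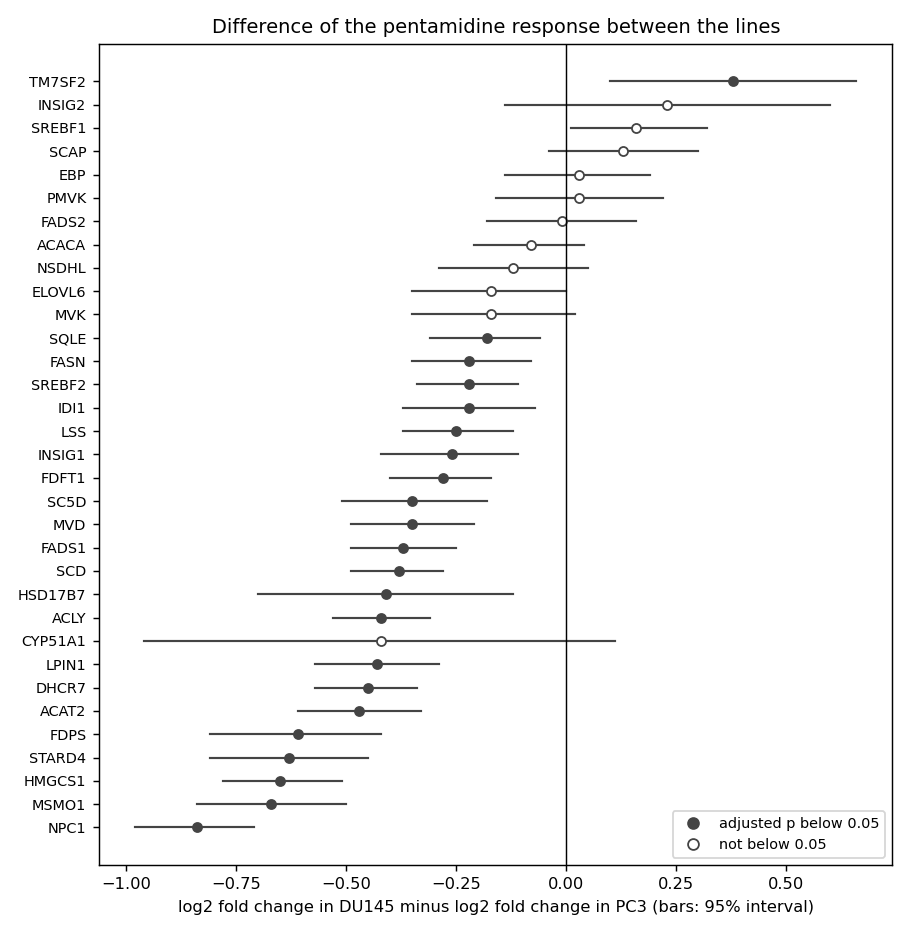
Log2 fold change in DU145 minus log2 fold change in PC3 for each of the 33 genes, with 95% intervals as bars; filled points passed an adjusted p of 0.05. All filled points but TM7SF2 lie left of 0, with NPC1 lowest at -0.84.

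Genes around the pathway were listed too: the machinery of sterol-controlled protein turnover and SREBP cleavage, LXR factors and targets, sterol storage and transport, side branches of sterol synthesis, and further fatty acid and glycerolipid synthesis. The table held 81 of them. In PC3, 75 were tested, 20 rose and 14 fell (median log2 fold change 0.01), where 21.7% of all genes rose and 21.7% fell. In DU145, 77 were tested, 9 rose and 21 fell (median -0.04), where 17.2% of all genes rose and 16.8% fell. The PC3 counts lie near the share of all genes. Against the same shares, the turnover and cleavage group had 8 of 15 genes lower and none higher in DU145, and 2 higher and 4 lower in PC3. The further fatty acid and glycerolipid genes had 11 higher and 6 lower of 27 in PC3, and 5 higher and 8 lower of 29 in DU145. Only VLDLR and DGAT2 in PC3 and PPARG in DU145 passed the threshold of the study. VLDLR and PPARG are there because the treated samples, where they were higher, took them past the filter on low counts; each had vehicle samples under 10 counts, so their passing is a description. VLDLR, a lipoprotein receptor, was at 0.654 ± 0.218 CPM with vehicle and 9.55 ± 0.791 with pentamidine in PC3 (7 to 14 and 123 to 153 counts per sample), a log2 fold change of 3.84 (SE 0.226, adjusted p = 4.5e-10). In DU145 it was at 0.528 ± 0.274 and 0.96 ± 0.609 CPM (0.86, adjusted p = 0.16, or 0.0325 without DU145 pentamidine replicate 2), and the lines differed by -2.98 (adjusted p = 0.00084). DGAT2, which completes triglycerides, was at 1.38 ± 0.307 CPM with vehicle and 3.66 ± 0.305 with pentamidine in PC3 (1.41, adjusted p = 0.00016), and it rose in DU145 as well, from 11.3 ± 0.559 to 19.1 ± 1.56 CPM (0.75, adjusted p = 2.7e-08). PPARG, a nuclear receptor of fat storage, had only 5 to 7 counts in the vehicle samples of DU145 and 10 to 15 in the treated ones (1.11, adjusted p = 0.0485). The call of PPARG was lost when any one of the 6 DU145 samples was left out (adjusted p = 0.0523 to 0.148). In PC3, where its level was 34.1 ± 0.188 CPM with vehicle, PPARG fell to 27.5 ± 1.94 (-0.31, adjusted p = 0.00351).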

How the data were processed

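Total RNA of PC3 and DU145 cells was enriched with oligo(dT) beads and sequenced in paired reads on Illumina NovaSeq by the authors. Their processing notes name HISAT2 2.1.0, DESeq 1.18.1 and GRCh38. The counter, the annotation and whether reads were counted by strand are not given in the sources used here. The deposited count table holds whole-number counts per gene, none normalized. A second deposited table, named for FPKM, holds CPM. All 384876 values compared equalled the count over the library total within 1 part in 100000 (100.0%). It was used only for this check and for the limma fits. The authors' fold changes and p-values were not used.

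Counts were tested as deposited in edgeR 4.0.16 (R 4.3.3) by quasi-likelihood with TMM factors, the low-count filter of filterByExpr (minimum 10 counts) and p-values adjusted by Benjamini-Hochberg over every gene tested, within each line, between the vehicle groups, and for the product of line and drug over all 12 samples. The steps were tested on simulated data. Alternatives were DESeq2 1.42.0, limma 3.58.1 on log2(CPM + 1) or log2(CPM + 0.1), other scalings and filters, a replicate block, 1 fit of all samples and leaving out each sample. The limma fits took CPM over the library total, without TMM, and so share the scaling of library size alone. Lengths are merged exons of GENCODE 29. Positions are those of the count table, and 30950 of its 31961 genes found there had the same position. Every member was given values. Values of each sample were printed for members whose response differed between lines and for the greatest change per role and line. The members, lists and rules were chosen with earlier results of these data known.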

Additional observations from a re-analysis of the deposited data

Results flagged for a closer look

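The 22 members below were picked out because the test of the difference itself passed (adjusted p below 0.05, edgeR, product of line and drug), and each value is the log2 fold change in DU145 minus that in PC3. In the mevalonate arm the differences were -0.47 for ACAT2, -0.65 for HMGCS1, -0.35 for MVD, -0.22 for IDI1 and -0.61 for FDPS. In the squalene and sterol arm they were -0.28 for FDFT1, -0.18 for SQLE, -0.25 for LSS, 0.38 for TM7SF2, -0.67 for MSMO1, -0.41 for HSD17B7, -0.35 for SC5D and -0.45 for DHCR7. Among the factors and their controls SREBF2 differed by -0.22 and INSIG1 by -0.26. Both transport genes differed, STARD4 by -0.63 and NPC1 by -0.84. In the fatty acid and glycerolipid arm the values were -0.42 for ACLY, -0.22 for FASN, -0.38 for SCD, -0.37 for FADS1 and -0.43 for LPIN1.

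For 16 of the 22 the difference passed in each of the fits that left out 1 sample. The difference of TM7SF2 was lost (adjusted p = 0.06 to 0.156) without any one of the samples other than PC3 vehicle replicates 1 and 2 and DU145 pentamidine replicate 2, and also under 5 other settings (0.0522 to 0.11), DESeq2 and RLE scaling among them. That of HSD17B7 was lost (0.0521 to 0.16) without PC3 vehicle 1, PC3 pentamidine 2 or 3, DU145 vehicle 1 or 3, or DU145 pentamidine 1 or 2. IDI1 lost its call (0.0604 to 0.0942) without PC3 vehicle 3, PC3 pentamidine 2 or 3, DU145 vehicle 2 or 3, or DU145 pentamidine 1 or 2. SQLE lost its call (0.0527 to 0.0698) without PC3 vehicle 3, PC3 pentamidine 1 or 3, DU145 vehicle 2 or any DU145 pentamidine sample. FASN lost its call (0.0544 to 0.0747) without PC3 vehicle 2, PC3 pentamidine 1 or 3, DU145 vehicle 1 or DU145 pentamidine 1, and INSIG1 (0.0666) without DU145 pentamidine 1. Under other settings the difference was also lost for HSD17B7 in 4 (0.0539 to 0.108, DESeq2 among them), IDI1 in 4 (0.0519 to 0.169), SQLE in 4 (0.063 to 0.191, the replicate block among them), FASN in 3 (0.106 to 0.153) and INSIG1 in 3 (0.0642 to 0.0683), library size alone and limma in each case.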

How the results depend on the processing

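Over the alternatives, 14 to 16 members were higher in PC3 and 14 to 18 lower in DU145, and 18 to 22 differed between the lines (16 to 22 with 1 sample left out). Members lower in PC3 numbered 4, but 3 with DESeq2, with no filter on low counts and with the replicate block, 2 at an adjusted p below 0.01 and 1 to 4 with 1 sample left out. Under library size alone 18 members changed in DU145, 14 of them lower. The replicate numbers did not pair the samples (correlations of same-numbered samples -0.299 to 0.072), and with the replicate block 19 members changed in PC3, 21 in DU145 and 20 differed between the lines. A few values near 0, none past the test, changed sign. INSIG1 in PC3 (0.01) was -0.011 under library size alone, -0.012 under limma with either pseudocount and between -0.034 and 0.051 with 1 sample left out. LSS in DU145 was 0.008 and FADS2 in DU145 0.042 under library size alone and under limma with either pseudocount. The difference of FADS2 between the lines was 0.06 under library size alone and 0.057 and 0.058 under limma with pseudocounts of 1 and 0.1. With 1 sample left out, ranges that crossed 0 in DU145 were -0.059 to 0.18 for CYP51A1, -0.031 to 0.003 for FADS2, -0.006 to 0.029 for SREBF2 and -0.003 to 0.042 for FADS1. Those of the difference between the lines were -0.062 to 0.011 for FADS2, -0.021 to 0.095 for PMVK and -0.039 to 0.085 for EBP. FADS2 in PC3 lay at 0 and was given no direction. In DU145 the median log2 fold change of all genes was 0.0085 in the main fit. It was 0.0581 under library size alone and 0.0518 and 0.0574 under limma with pseudocounts of 1 and 0.1. Neither library size alone nor limma used TMM. The cause of the sign changes was not tested. The rise of SCD in DU145 was lost under 7 of the 10 other settings that kept every sample (adjusted p = 0.0511 to 0.158). The falls of ACLY, FDFT1, IDI1 and NPC1 in DU145 were lost under library size alone and limma (0.0535 to 0.192, which includes DESeq2 and 1 fit of all samples for IDI1 and DESeq2 for NPC1). The rise of PPARG in DU145 was lost with DESeq2 (0.214). CYP51A1 and INSIG2, at 76 to 267 and 101 to 266 counts per sample, limit what small changes can be seen for them.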
